A study of Mus musculus with 11 samples.

Results

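The mitochondrial ribosomal proteins are the protein part of the mitochondrial ribosome, and their genes carry symbols that start with Mrpl (large subunit) or Mrps (small subunit). Genes were taken by these letters alone, from the platform's names for the probes of the array. The array held 132 such probes of 45281, for 76 genes of 19057 named ones. A probe was kept where all arrays of 1 group or more had detected it over background, with a detection p under 0.01. This left 111 of the 132 probes and 73 of the 76 genes, among 10134 genes tested in all. The 73 were 46 Mrpl and 27 Mrps genes. Mrpl19, Mrpl32 and Mrps14 were not detected on any array.

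Quadriceps RNA came from female CD2F1 mice aged 5 to 6 weeks, with 11 arrays of the Illumina MouseWG-6 v2.0 type. Each array is called a mouse here, although the labels number replicates and do not name animals. The 4 control mice carried no tumor, and the others carried tumors from implanted C26 cells, a mouse colon adenocarcinoma line. The 3 mice with moderate cachexia (Early in the labels) had lost about 10% of body weight and the 4 mice with severe cachexia about 15%, the latter collected later. Both stages therefore share the tumor itself, each is a single time of collection, and whole muscle was measured. In such bulk RNA, fewer cells of a type and less RNA per cell cannot be told apart. Mice are named by the numbers in the table of signals (controls 1 to 4, moderate 5, 9 and 12, severe 11, 13, 15 and 16), since no source links them to the labels' own replicate numbering. Each array detected 18626 to 20006 probes and 72 or 73 of the 73 genes. Markers of skeletal muscle were high on every array, with Ckm, the muscle creatine kinase, at a log2 signal of 14.27 to 14.64. Severe mouse 11 had the highest macrophage markers of the 11 mice. Unlike in the other cachectic mice, the median of its adipocyte markers lay at the level of the controls. In the summed adipocyte signal severe mouse 16 lay there too (20096, beside 20108 in severe mouse 11). Counts are also given without severe mouse 11.

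The mitochondrial ribosome translates the few messages that mitochondrial DNA encodes, all of them core subunits of the respiratory chain and ATP synthase. Its RNAs come from mitochondrial DNA, while all of its proteins are encoded in the nucleus, made on cytosolic ribosomes and imported. Many of these proteins descend from bacterial ribosomal proteins and others have no bacterial counterpart. Skeletal muscle fibers of the oxidative types are rich in mitochondria, and the nuclear regulators NRF1, GABP and the ERR receptors, with the PGC-1 coactivators, are known for driving genes of this kind.

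In moderate cachexia 29 of the 73 genes were lower than in control muscle and 1 was higher, at a Benjamini-Hochberg adjusted p under 0.05 in a limma fit over all genes tested. This is 39.7% of the members lower, beside 22.2% of all genes tested, and 1.37% higher, beside 18.9%. The median log2 fold change was -0.29 over the members and -0.03 over all genes. In 36 of the 73 every moderate mouse lay below every control mouse, beside 25.0% of all genes, and in 3 every moderate mouse lay above every control, beside 22.8%. In severe cachexia 26 of the 73 were lower (35.6%, beside 17.8% of all genes) and 3 were higher (4.11%, beside 15.6%). The median was -0.25, against 0.00 over all genes, and in 29 of the 73 every severe mouse lay below every control, beside 17.3% of all genes, and in 2 above, beside 15.0%. These shares are descriptions, since the genes of a complex are not independent of each other. The moderate count rested in part on single mice. Leaving out moderate mouse 5 gave 11, moderate mouse 12 gave 14 and control mouse 3 gave 18, all of them genes of the original 29. The median then lay at -0.24, -0.24 and -0.26. The severe count rested on single mice as well. It was 19 without control mouse 3 or severe mouse 16, and 20 without severe mouse 13, all of them genes of the original 26. Without severe mouse 11 the severe count of lower genes was 26, of which 24 were shared. Weighting arrays by their quality raised the severe count of lower genes to 40, and that of higher genes rose as well. The share of all genes called under these weights was not counted, so the 40 cannot be read against it. Severe mouse 16 then had a weight of 3.36, beside 0.31 to 0.82 in the other severe mice.

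**Figure D1:**
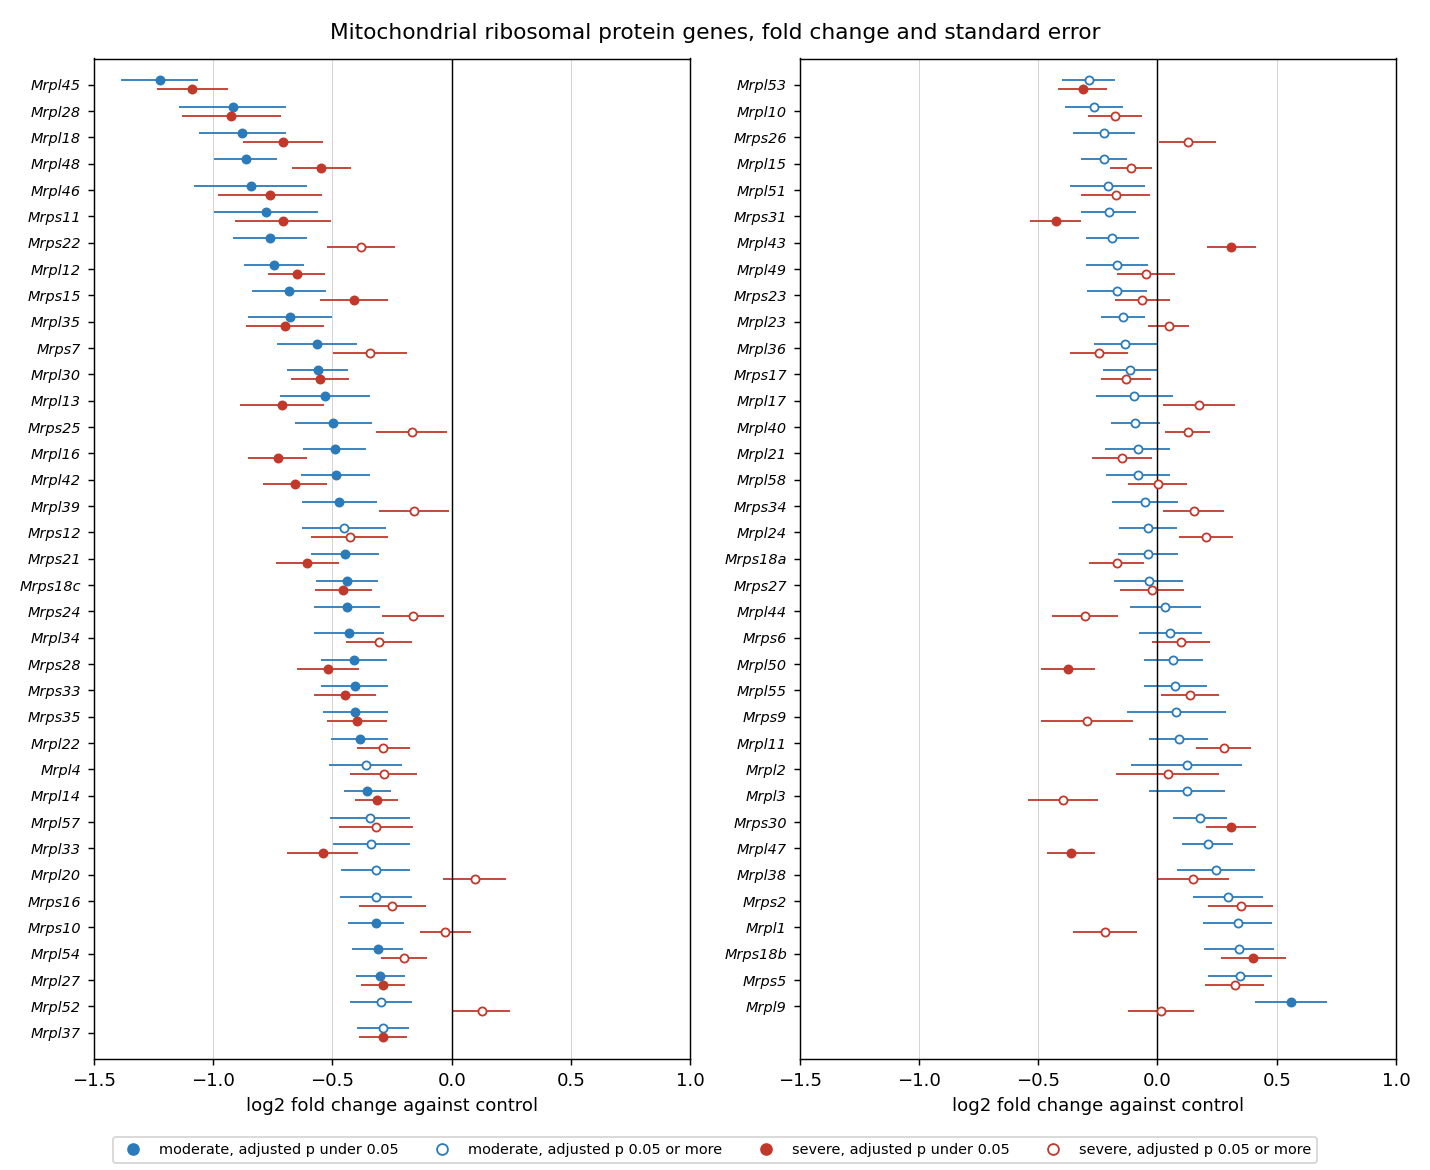
Log2 fold change against control (x axis) with its standard error for each of the 73 genes, in moderate (blue) and severe (red) cachexia, ordered by the moderate value. Filled points passed an adjusted p of 0.05: 29 lower and 1 higher in moderate, 26 lower and 3 higher in severe cachexia.

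Of the 35 members lower in 1 stage or both, 20 were lower in both. This is near the share among all genes tested, with 1380 of 2670. Both comparisons use the same 4 controls, so their values are given side by side and not as independent support of each other. Of the 73 genes 20 were lower in both, beside 13.6% of all genes tested. By the same limma fit 0 of the 73 were higher in both, beside 9.65% of all genes, and Mrps18b with Mrps5 were higher in both at an unadjusted p under 0.05. The 20 lower genes were Mrpl12, Mrpl13, Mrpl14, Mrpl16, Mrpl18, Mrpl27, Mrpl28, Mrpl30, Mrpl35, Mrpl42, Mrpl45, Mrpl46, Mrpl48, Mrps11, Mrps15, Mrps18c, Mrps21, Mrps28, Mrps33 and Mrps35. Their log2 fold changes ran from -1.22 to -0.30 in moderate and from -1.09 to -0.29 in severe cachexia. Another 9 genes passed as lower only in the moderate comparison (Mrpl22, Mrpl34, Mrpl39, Mrpl54, Mrps7, Mrps10, Mrps22, Mrps24 and Mrps25). Severe minus moderate was 0.10 to 0.38 in these 9, and no such difference passed by itself. A further 6 passed as lower only in the severe comparison (Mrpl33, Mrpl37, Mrpl47, Mrpl50, Mrpl53 and Mrps31), and in 2 of these, Mrpl47 and Mrpl50, the stages differed. In all, 34 of the 73 passed in neither comparison.

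**Figure D2:**
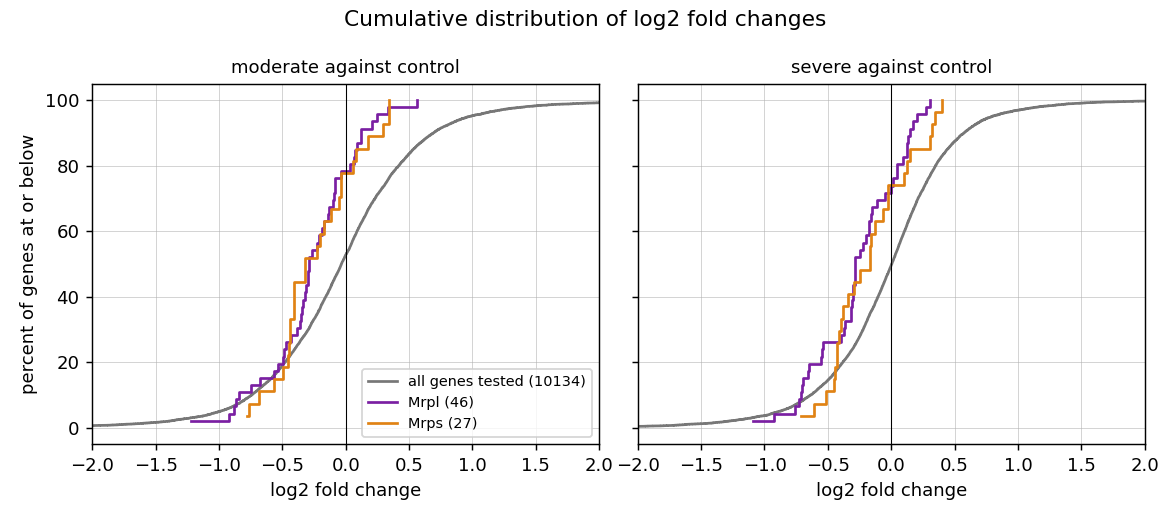
Percent of genes (y axis) at or below each log2 fold change (x axis) for the 46 Mrpl genes, the 27 Mrps genes and all 10134 genes tested, in moderate and severe cachexia. Both member curves lie left of the curve of all genes around the middle, and the highest member value is 0.56 (Mrpl9, moderate), while the curve of all genes extends past 1 in both directions; the x axis is cut at -2 and 2.

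Mrpl45 had the largest fall in both stages. Its protein lies near the exit of the peptide tunnel and helps to hold the ribosome at the inner membrane. Its log2 signals were 5.90, 6.16, 5.69 and 5.90 in the controls, 4.37, 4.84 and 4.86 in the moderate mice and 4.83, 4.59, 4.88 and 5.00 in the severe mice. All 7 cachectic mice lay below all 4 controls. The probe was dim and passed the detection filter through the controls alone, the group where it was high, which limits how its falls can be read. It was detected on all 4 control arrays and on 3 of the 4 severe arrays, and was not well above background on any moderate array. The fall to moderate cachexia was therefore at least 2.0-fold, with a fitted change of -1.22 (SE 0.16, adjusted p = 0.00017). In severe cachexia it fell by 1.09 on the log2 scale (SE 0.15, adjusted p = 0.000324). The bound sets the control mean against the higher of the probe's own signal and the lowest detected signal of each moderate array. The promoter of Mrpl45, from the RefSeq promoter table (build GRCm38.p6), is shown because letters of the kind that NRF1 is known to bind, GCGC followed after any pair of bases by GCGC once more, occur in it at 120 and at 38 bases before the start site. The last 150 bases before that site (chr11:97315566-97315715, plus strand) read 5′ to 3′ as follows, with the NRF1 letters in capitals.
Mrpl45: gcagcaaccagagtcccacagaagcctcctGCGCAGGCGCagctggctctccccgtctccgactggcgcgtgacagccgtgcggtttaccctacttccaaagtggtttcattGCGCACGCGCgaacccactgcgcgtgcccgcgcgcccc

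Mrpl28, a large subunit protein with a bacterial counterpart, had log2 signals of 11.51, 11.07, 11.54 and 11.42 in the controls, 10.18, 10.91 and 10.32 in moderate and 10.85, 9.98, 10.76 and 10.25 in severe cachexia. No cachectic mouse reached the lowest control, and moderate mouse 9 with severe mice 11 and 15 lay nearest to it. Mrpl28 fell by 0.92 (SE 0.22, adjusted p = 0.00624) in moderate and by 0.92 (SE 0.21, adjusted p = 0.00525) in severe cachexia on the log2 scale. Both changes remained past the threshold with any 1 mouse left out and under every other setting tried.

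The central protuberance is the crown of the large subunit that faces the small subunit. Of the 5 tested proteins listed for it here, 3 were lower in both stages, beside 13.6% of all genes tested. Mrpl18, the protein related to bacterial L18, measured 9.99, 9.77, 10.00 and 10.02 in controls, 8.71, 9.39 and 9.11 in moderate and 9.57, 8.89, 9.37 and 9.12 in severe mice. All cachectic mice lay below all controls, although control 2 lay apart from the other controls, and the stages overlapped. It fell by 0.88 (SE 0.18, adjusted p = 0.00265) and by 0.71 (SE 0.17, adjusted p = 0.00715) in moderate and severe cachexia. Mrpl48, which has no bacterial counterpart, measured 10.11, 10.41, 10.24 and 10.22, then 9.18, 9.54 and 9.42, then 9.88, 9.50, 9.66 and 9.76 in the same order of groups. Every severe mouse but mouse 13 lay above every moderate mouse, and all of them lay below the controls. It fell by 0.86 (SE 0.13, adjusted p = 0.000483) in moderate and by 0.55 (SE 0.12, adjusted p = 0.00535) in severe cachexia. The difference between the stages was 0.32 and did not pass (SE 0.13, adjusted p = 0.167). The other proteins listed here for this crown, Mrpl38 and Mrpl40, did not pass in either stage. Their changes were 0.24 and -0.09 in moderate and 0.15 and 0.13 in severe cachexia.

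Mrpl46, also of the central protuberance, and Mrps11, a small subunit protein with a bacterial counterpart, have start sites that point away from each other with 41 bases between them in the RefSeq table. Log2 signals of Mrpl46 were 10.34, 9.78, 10.48 and 10.29 in the controls, 9.01, 9.87 and 9.26 in moderate and 9.85, 9.11, 9.69 and 9.20 in severe mice. Control 2 was the lowest control and lay below moderate mouse 9 and severe mouse 11, so the groups overlapped. Log2 signals of Mrps11 were 8.50, 8.25, 8.64 and 8.55 in the controls, 7.48, 8.01 and 7.64 in moderate and 8.04, 7.14, 8.11 and 7.82 in severe mice. Here all cachectic mice lay below all controls, while the stages overlapped. In moderate cachexia Mrpl46 fell by 0.84 (SE 0.24, adjusted p = 0.0132) and Mrps11 by 0.78 (SE 0.22, adjusted p = 0.0127). In severe cachexia Mrpl46 fell by 0.76 (SE 0.22, adjusted p = 0.0181) and Mrps11 by 0.71 (SE 0.20, adjusted p = 0.0171). Without moderate mouse 5 the adjusted p of the moderate changes was 0.0781 for Mrpl46 and 0.0666 for Mrps11. For Mrpl46 it was also 0.0506 without moderate mouse 12, and in severe cachexia 0.0540, 0.0551 and 0.0589 without control 3, severe 13 and severe 16. The stretch between the start sites (chr7:78783090-78783130, build GRCm38.p6, read 5′ to 3′ toward Mrps11) is shown as the DNA that both genes share upstream. It holds no match to the letters searched for NRF1, ETS factors or YY1, so no base is in capitals.
Mrpl46 to Mrps11: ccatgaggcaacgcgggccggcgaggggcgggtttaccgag

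**Figure D3:**
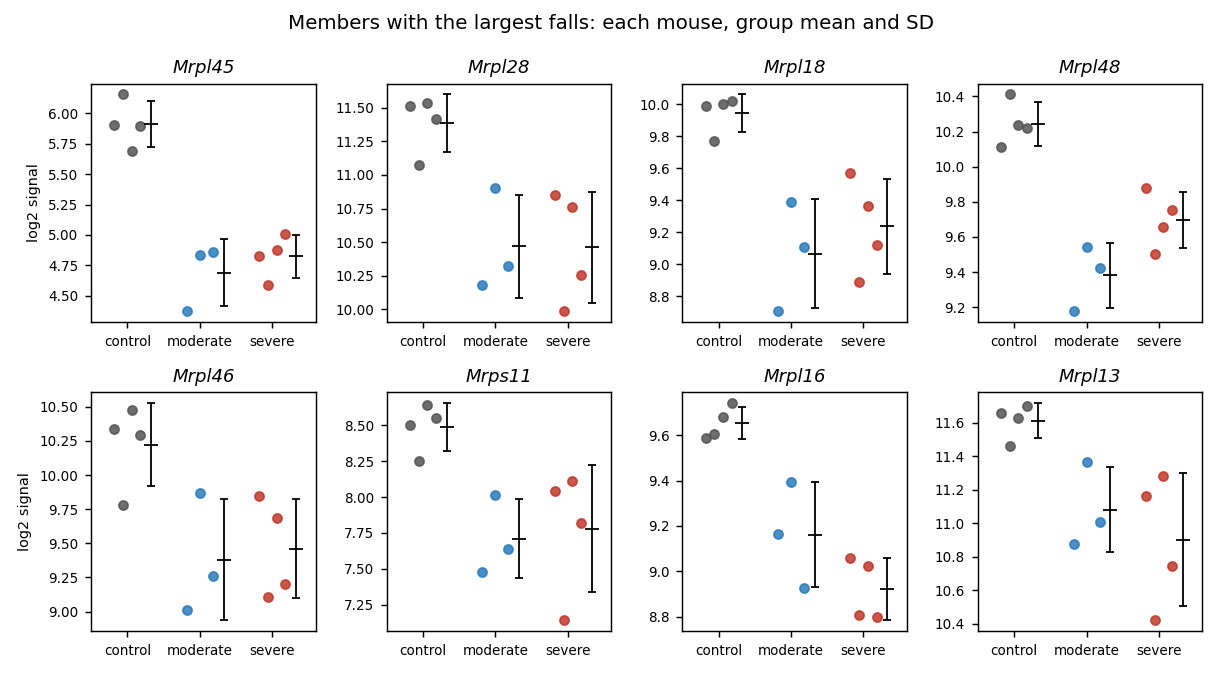
Log2 signal (y axis, a separate scale for each gene) of each mouse in the control, moderate and severe groups for the 8 genes named for the largest falls, with group mean and SD in black. In Mrpl46 alone among the 8, a control mouse lies within the range of the cachectic mice.

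Mrpl16 and Mrpl13, large subunit proteins with bacterial counterparts, were among the largest falls of the severe comparison. Mrpl16 measured 9.59, 9.60, 9.68 and 9.74 in controls, 9.17, 9.39 and 8.93 in moderate and 9.06, 8.81, 9.02 and 8.80 in severe mice. The groups did not overlap with the controls, and moderate mouse 12 lay among the severe mice. It fell by 0.73 (SE 0.12, adjusted p = 0.0011) in severe and by 0.49 (SE 0.13, adjusted p = 0.0109) in moderate cachexia. Mrpl13 measured 11.66, 11.46, 11.63 and 11.70 in controls, 10.87, 11.36 and 11.01 in moderate and 11.16, 10.42, 11.28 and 10.74 in severe mice. Severe mouse 13 was the lowest of all, and the cachectic mice all lay below the controls. It fell by 0.71 (SE 0.17, adjusted p = 0.00833) in severe and by 0.53 (SE 0.19, adjusted p = 0.0383) in moderate cachexia.

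Among the other parts of the large subunit, 2 of the 5 stalk genes tested were lower in each stage. The stalk is where translation factors dock. Its member Mrpl12 was lower in both stages, with -0.74 (SE 0.13, adjusted p = 0.000888) in moderate and -0.65 (SE 0.12, adjusted p = 0.00166) in severe cachexia. Shares of the stalk and of the small groups that follow can be read against the 22.2% and 17.8% of all genes that were lower in moderate and severe cachexia. Of the 8 genes for proteins around the exit of the peptide tunnel, 3 were lower in moderate (Mrpl45, Mrpl39 and Mrpl22) and 2 in severe cachexia (Mrpl45 and Mrpl47, or 25% of the 8, near the share of all genes). Grouped by where the protein sits, 17 of 48 large subunit genes and 12 of 25 small subunit genes were lower in moderate, and 18 of 48 and 8 of 25 in severe cachexia. The medians were -0.28 and -0.32 in moderate and -0.27 and -0.25 in severe cachexia for the large and the small subunit. Genes with a bacterial counterpart were lower in 19 of 42 in moderate and 16 of 42 in severe cachexia, and genes without one in 10 of 30 in each. Mrpl55 was put in neither class. No difference between these classes was tested.

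The remaining large subunit genes that were lower in both stages were Mrpl14, Mrpl27, Mrpl30, Mrpl35 and Mrpl42, of which all but Mrpl42 have bacterial counterparts. Their log2 fold changes in moderate cachexia were -0.35 for Mrpl14, -0.30 for Mrpl27, -0.56 for Mrpl30, -0.68 for Mrpl35 and -0.49 for Mrpl42. In severe cachexia they were -0.31 for Mrpl14, -0.29 for Mrpl27, -0.55 for Mrpl30, -0.70 for Mrpl35 and -0.66 for Mrpl42. These falls were smaller than those of Mrpl45 and Mrpl28 in both stages. Small subunit genes lower in both stages, beside Mrps11 and Mrps18c, were Mrps15, Mrps21, Mrps28, Mrps33 and Mrps35. Their fold changes were -0.68 for Mrps15, -0.45 for Mrps21, -0.41 for Mrps28, -0.41 for Mrps33 and -0.40 for Mrps35 in moderate cachexia. In severe cachexia they were -0.41 for Mrps15, -0.61 for Mrps21, -0.52 for Mrps28, -0.45 for Mrps33 and -0.40 for Mrps35. The first 3 of these proteins have bacterial counterparts, and the others are found in mitochondrial ribosomes alone. Small subunit genes that passed only in the moderate comparison had -0.56 for Mrps7, -0.32 for Mrps10, -0.76 for Mrps22, -0.44 for Mrps24 and -0.50 for Mrps25 there. In severe cachexia the same genes had -0.34 for Mrps7, -0.03 for Mrps10, -0.38 for Mrps22, -0.16 for Mrps24 and -0.17 for Mrps25, with adjusted p from 0.0575 to 0.869.

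Against this direction, Mrpl9 was the 1 gene that rose in moderate cachexia. Its protein lies at the base of the L1 stalk of the large subunit. Log2 signals were 9.07, 9.34, 9.25 and 9.46 in controls, 10.05, 9.88 and 9.59 in moderate and 9.14, 9.57, 9.27 and 9.20 in severe mice. Every moderate mouse lay above every control and every severe mouse, and the severe mice overlapped with the controls. Mrpl9 rose by 0.56 on the log2 scale (SE 0.15, adjusted p = 0.0105) in moderate cachexia, and it missed the threshold without moderate mouse 5 (0.45, adjusted p = 0.0616). The count of higher genes was 2 without moderate 9, moderate 12 or severe 11. Severe cachexia gave 0.02 (SE 0.14, adjusted p = 0.944) against control. A second probe gave 0.55 (adjusted p = 0.00832, among all probes tested) in moderate cachexia. The 150 bases before its start site (chr3:94443186-94443335, plus strand, GRCm38.p6) are shown because they hold the same NRF1 letters as those of Mrpl45. The letters stand here at 28 bases before the start, again in capitals. The part of these letters in the changes of either gene was not tested.
Mrpl9: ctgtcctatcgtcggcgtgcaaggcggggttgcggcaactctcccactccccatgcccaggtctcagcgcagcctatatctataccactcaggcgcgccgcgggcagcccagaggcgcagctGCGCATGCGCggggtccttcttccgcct

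Between the stages 4 of the 73 genes were lower in severe than in moderate cachexia and 1 was higher, which is 5.48% and 1.37% of the members, beside 3.81% and 3.17% of all genes tested. These shares are near those of all genes. In 4 members every severe mouse lay below every moderate mouse and in 9 above, beside 9.33% and 10.8% of all genes. The median difference was 0.05 over the members and 0.02 over all genes. Mrpl47, the protein related to bacterial L29 at the tunnel exit, measured 10.08, 10.03, 10.13 and 10.17 in controls, 10.42, 10.35 and 10.17 in moderate and 9.68, 9.73, 9.84 and 9.70 in severe mice. The severe mice lay below all others, and 2 of the 3 moderate mice lay above all controls. Severe minus moderate was -0.57 (SE 0.11, adjusted p = 0.00895), and without moderate mouse 5 it was -0.52 with an adjusted p of 0.0524. A dimmer probe of Mrpl47 gave -0.37 between the stages (adjusted p = 0.189, among all probes tested). In severe cachexia against control that probe gave -0.20 (adjusted p = 0.347). Mrpl1, of the L1 stalk, measured 10.07, 9.77, 10.01 and 10.21, then 10.49, 10.45 and 10.12, then 9.84, 9.58, 9.97 and 9.81. The stages did not overlap, while both overlapped with the controls and neither passed against them. Severe minus moderate was -0.56 (SE 0.14, adjusted p = 0.036). A dimmer probe of Mrpl1 gave -0.07 in moderate and -0.03 in severe cachexia, and the mean of both probes differed by -0.26 between the stages (adjusted p = 0.152). For Mrpl9, described above, severe minus moderate was -0.55 (SE 0.15, adjusted p = 0.0464), and all severe mice lay below the lowest moderate mouse.

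Mrpl50, a large subunit protein without a bacterial counterpart, measured 11.21, 11.05, 10.99 and 11.30 in controls, 11.24, 11.21 and 11.16 in moderate and 10.82, 10.49, 10.89 and 10.85 in severe mice. The severe mice lay below all others. Severe minus moderate was -0.44 (SE 0.12, adjusted p = 0.0478), and it missed the threshold with any 1 of the 11 mice left out (adjusted p up to 0.154, without moderate mouse 5). Mrpl43, another such protein, was the 1 gene higher in severe than in moderate cachexia. It measured 10.38, 10.36, 10.62 and 10.35 in controls, 10.15, 10.25 and 10.32 in moderate and 10.73, 10.82, 10.64 and 10.75 in severe mice. All severe mice lay above all controls, and all moderate mice lay below them. Severe minus moderate was 0.50 (SE 0.11, adjusted p = 0.0198). It was 0.45 without moderate mouse 5 and 0.49 without severe mouse 16, with adjusted p of 0.0894 and 0.0560. A dimmer probe of Mrpl43 gave 0.38 between the stages (adjusted p = 0.1135, among all probes tested). The call of Mrpl1 was lost without control 1 or 3, moderate 5 or 9, or severe 13 or 16 (adjusted p up to 0.149), and that of Mrpl9 was kept only without moderate 12 or severe 13 (adjusted p up to 0.193, without moderate mouse 5). The count of genes lower in severe than in moderate cachexia was thus 0 by limma without moderate mouse 5 (5 at an unadjusted p under 0.05), 1 without control 1, control 3, moderate 9 or severe 16, and 2 without control 2, control 4, severe 11 or severe 13.

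**Figure D4:**
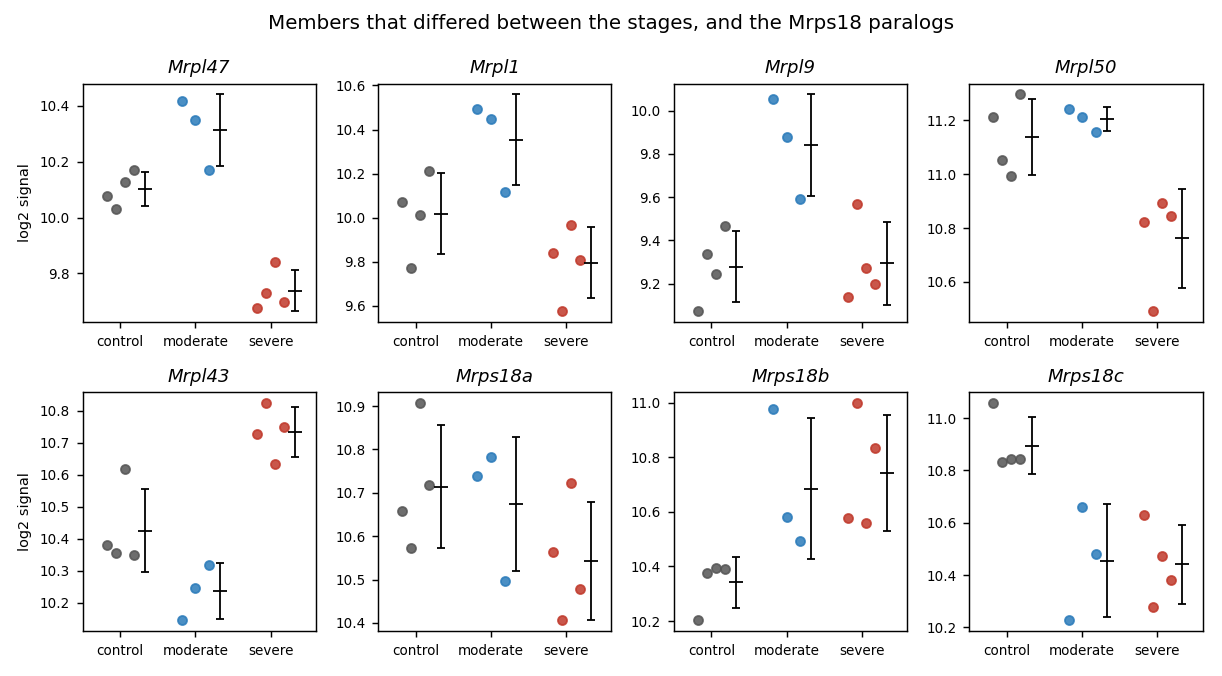
Log2 signal (y axis, a separate scale for each gene) of each mouse by group for the 5 genes that differed between the stages and the 3 Mrps18 genes, with group mean and SD in black. Mrpl9 and Mrpl1 are highest in moderate cachexia, Mrpl47 and Mrpl50 are lowest in severe cachexia, and Mrps18b and Mrps18c lie on opposite sides of the controls.

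Higher in severe cachexia than in control muscle were Mrps18b, Mrpl43 and Mrps30. All 3 calls depended on single mice. That of Mrps18b was lost without any 1 of the controls or without severe 13 or 16 (adjusted p up to 0.108), that of Mrpl43 without control 1, 2 or 4 or severe 13 or 16 (up to 0.0886), and that of Mrps30 without control 1, 2 or 4 or severe 13, 15 or 16 (up to 0.0988). The count of higher genes by limma was 0 without control 1, control 4, severe 13 or severe 16. At an unadjusted p under 0.05 by limma it was 3 to 5 there. Without control 2 the count was 1, a gene other than these 3, and without severe 11 it was 5. Mrpl43 rose by 0.31 (SE 0.10, adjusted p = 0.0331), with the values given above. Its dimmer probe gave 0.27 and did not pass (adjusted p = 0.129, among all probes tested). Mrps30, which despite its symbol sits in the large subunit, measured 10.97, 10.81, 11.06 and 10.97 in controls, 11.03, 11.19 and 11.18 in moderate and 11.06, 11.38, 11.30 and 11.32 in severe mice. Severe mouse 11 lay within the range of the controls and the other severe mice above it. Mrps30 rose by 0.31 (SE 0.10, adjusted p = 0.0367).

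The 3 Mrps18 genes encode relatives of bacterial S18. The proteins of Mrps18b and Mrps18c belong to the small subunit and that of Mrps18a to the large subunit. Mrps18b measured 10.20, 10.38, 10.39 and 10.39 in controls, 10.98, 10.58 and 10.49 in moderate and 10.58, 10.998, 10.56 and 10.84 in severe mice. All 7 cachectic mice lay above all controls. It rose by 0.40 (SE 0.14, adjusted p = 0.0357) in severe cachexia and its moderate difference was 0.34 (SE 0.15, adjusted p = 0.0763). Both of its other probes passed as higher in moderate (0.58 and 0.62, adjusted p = 0.0197 and 0.0223) and in severe cachexia (0.66 and 0.64, adjusted p = 0.00887 and 0.0153) in the fit of all probes. Mrps18c measured 11.06, 10.83, 10.85 and 10.85, then 10.23, 10.66 and 10.48, then 10.63, 10.28, 10.47 and 10.38 in controls, moderate and severe mice, with all cachectic mice below all controls. It fell by 0.44 (SE 0.13, adjusted p = 0.0172) in moderate and by 0.45 (SE 0.12, adjusted p = 0.0124) in severe cachexia. The moderate value was -0.39 (adjusted p = 0.0523) without control 1 and -0.33 (adjusted p = 0.0967) without moderate mouse 5. Mrps18a measured 10.66, 10.57, 10.91 and 10.72, 10.74, 10.78 and 10.50 and 10.56, 10.41, 10.72 and 10.48 in the same groups, which overlapped. Its differences were -0.04 in moderate (95% confidence interval -0.31 to 0.23, adjusted p = 0.818) and -0.17 in severe cachexia (-0.42 to 0.08, adjusted p = 0.272).

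Several probes of the same gene mostly moved the same way. In 27 genes more than 1 probe was tested, 65 probes in all, and all probes of a gene had the same sign in 24 of the 27 in moderate and in 23 in severe cachexia. In no gene did the probes pass in opposite directions. All 3 tested probes of Mrpl48 passed as lower in both stages, as did both of Mrpl13 and of Mrps11. Adjusted p in this paragraph are those of the fit of all probes. A dimmer probe of Mrpl18 gave -1.49 (adjusted p = 0.000397) in moderate and -0.57 (adjusted p = 0.0522) in severe cachexia. For Mrps12, a small subunit protein of the decoding center, the brighter probe gave -0.45 (adjusted p = 0.0552) and -0.43 (adjusted p = 0.0591), while the other gave -0.91 (adjusted p = 0.00150) and -0.48 (adjusted p = 0.0369). Of the 5 tested probes of Mrpl15, a dim one passed as higher in moderate cachexia (0.56, adjusted p = 0.0202), while its brightest probe gave -0.22 (adjusted p = 0.0825).

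Per mouse, the median deviation of the 73 genes from the control mean was -0.10 to 0.08 in the 4 controls. It was -0.28, -0.18 and -0.28 in moderate mice 5, 9 and 12, and -0.21, -0.35, -0.15 and -0.25 in severe mice 11, 13, 15 and 16. All cachectic mice thus lay below all controls in this median. Within their groups, moderate mouse 9 had the highest signal of the 3 moderate mice in 40 of the 73 genes, severe mouse 13 the lowest of the 4 severe mice in 37, and control 2 the lowest control in 40. Summed over the 73 genes, the deposited signals were 109820 to 124540 in controls, 93963 to 105450 in moderate and 92254 to 106410 in severe mice.

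Nuclear genes for respiratory chain and ATP synthase subunits, many of whose partners the mitochondrial ribosome makes, were lower in 49 of 71 in moderate (69.0%) and 61 of 71 in severe cachexia (85.9%), with medians of -0.46 and -0.55. Cytosolic ribosomal protein genes, the counterpart outside mitochondria, were higher in 12 of 58 (20.7%, near the 18.9% of all genes) and 27 of 58 (46.6%, beside 15.6%), with 1 lower in severe, and had medians of 0.16 and 0.26. These lists were not tested against the members. In every cachectic mouse the median of the respiratory chain lay below that of the mitochondrial ribosomal genes, and the median of the cytosolic ribosome lay above 0.

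**Figure D5:**
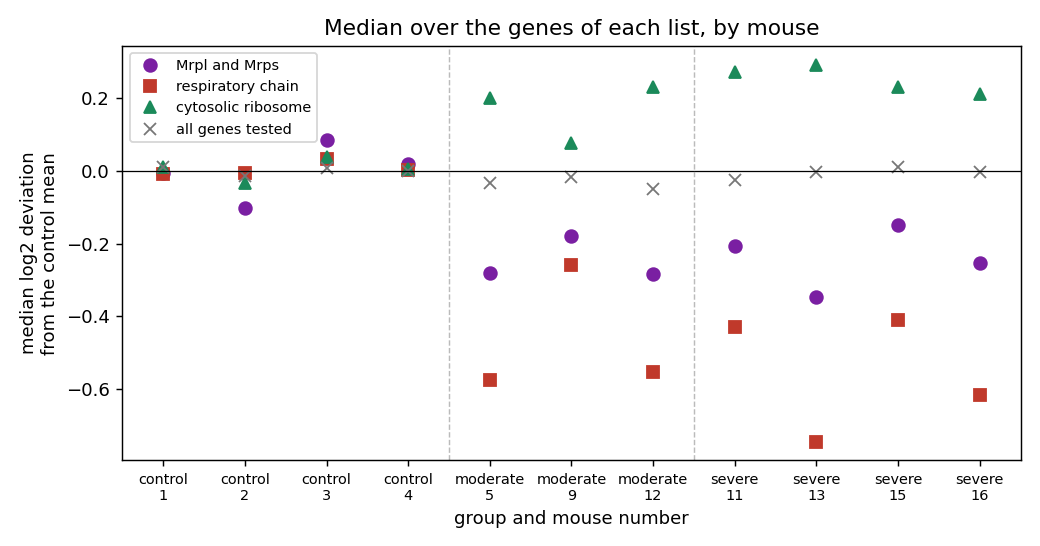
Median log2 deviation from the control mean (y axis) over the genes of each list for each of the 11 mice (x axis). In all 7 cachectic mice the 73 mitochondrial ribosomal genes (purple circles, -0.35 to -0.15) lie between the cytosolic ribosome (green triangles) and the respiratory chain (red squares).

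Mitochondrial ribosome proteins whose symbols do not begin with Mrp were lower in 3 of the 4 tested. Ptcd3, which lies at the messenger RNA entry of the small subunit, fell by 0.64 (SE 0.13, adjusted p = 0.00202) in moderate and by 0.51 (SE 0.12, adjusted p = 0.00588) in severe cachexia. Gadd45gip1, of the large subunit, fell by 0.57 (SE 0.14, adjusted p = 0.00589) and 0.44 (SE 0.13, adjusted p = 0.0193). Chchd1, of the small subunit, fell by 0.50 (SE 0.13, adjusted p = 0.0105) and 0.37 (SE 0.12, adjusted p = 0.0364). Dap3, a nucleotide-binding protein of the small subunit, did not pass, with 0.09 (adjusted p = 0.569) and 0.17 (adjusted p = 0.262).

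Of 14 translation factors and RNA-binding helpers of mitochondrial translation tested, 6 were lower and 2 higher in moderate cachexia. These are 42.9% and 14.3%, beside 22.2% and 18.9% of all genes. In severe cachexia 6 were lower and 1 higher (42.9% and 7.14%, beside 17.8% and 15.6%). The medians were -0.30 in moderate and -0.29 in severe cachexia. Tsfm, the elongation factor that recharges the factor Tufm, fell by 0.66 (SE 0.13, adjusted p = 0.00203) in moderate cachexia and gave -0.30 in severe (adjusted p = 0.074). Slirp, which stabilizes mitochondrial messages, fell by 0.74 (SE 0.16, adjusted p = 0.00295) and 0.45 (SE 0.14, adjusted p = 0.0286). Taco1, an activator of Cox1 translation, fell by 0.79 (SE 0.18, adjusted p = 0.00472) and 0.60 (SE 0.17, adjusted p = 0.0162). Mrrf, the recycling factor that frees ribosomes after a protein is finished, rose by 0.64 (SE 0.14, adjusted p = 0.00405) and 0.48 (SE 0.13, adjusted p = 0.0147).

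Assembly factors of the mitochondrial ribosome showed no common direction, with 3 of 18 lower and 5 higher in moderate and 1 lower and 1 higher in severe cachexia. The pseudouridine synthases went apart in moderate cachexia, where Rpusd3 fell by 0.77 (SE 0.12, adjusted p = 0.000655) and Rpusd4 rose by 0.54 (SE 0.13, adjusted p = 0.00659). In severe cachexia they gave -0.12 and 0.16 and did not pass. The ribosomal RNA methyltransferase Nsun4 fell by 0.54 (SE 0.14, adjusted p = 0.00934) in moderate cachexia and gave -0.33 (adjusted p = 0.066) in severe. Mterf3, of the MTERF family and known to be needed for assembly of the large subunit, rose by 0.50 (SE 0.15, adjusted p = 0.0153) and 0.42 (SE 0.13, adjusted p = 0.0294).

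Mitochondrial aminoacyl-tRNA synthetases, which charge the tRNAs that the ribosome reads, were lower in 5 of 13 in moderate (38.5%, beside 22.2% of all genes) and 3 of 13 in severe cachexia (23.1%, near the 17.8% of all genes). Sars2, for serine, fell by 0.80 (SE 0.14, adjusted p = 0.00107) and by 1.09 (SE 0.13, adjusted p = 0.000164). Lars2, for leucine, fell by 0.57 (SE 0.14, adjusted p = 0.00754) and 0.60 (SE 0.13, adjusted p = 0.00507). Cars2, for cysteine, fell by 0.38 (SE 0.14, adjusted p = 0.0443) and 0.40 (SE 0.13, adjusted p = 0.0333). Vars2, for valine, fell in moderate cachexia by 0.66 (SE 0.16, adjusted p = 0.00592) and gave -0.10 in severe (adjusted p = 0.641).

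Genes for the expression of mitochondrial DNA were lower in 3 and higher in 3 of 14 in moderate cachexia, and lower in 3 and higher in 2 in severe. The 21.4% lower and 21.4% higher in moderate and the 21.4% and 14.3% in severe cachexia were near the shares of all genes tested (22.2% and 18.9%, then 17.8% and 15.6%). Tfam, which packages and transcribes that DNA, fell by 0.71 (SE 0.13, adjusted p = 0.00106) and 0.59 (SE 0.12, adjusted p = 0.00265). Mterf2 fell by 1.61 (SE 0.32, adjusted p = 0.00201) and 1.63 (SE 0.29, adjusted p = 0.00166), while its relative Mterf1a rose by 0.65 (SE 0.16, adjusted p = 0.00569) and 0.41 (SE 0.14, adjusted p = 0.0427). Elac2, which cuts the ends of mitochondrial tRNAs, rose by 0.89 (SE 0.15, adjusted p = 0.000959) and 0.79 (SE 0.14, adjusted p = 0.00152). Of 11 nuclear regulators tested, 4 were lower and 4 higher in moderate cachexia, and 5 lower and 2 higher in severe, so they had no common direction. The coactivator Ppargc1b fell by 2.46 (SE 0.20, adjusted p = 6.05e-06) and 1.15 (SE 0.18, adjusted p = 0.000764). Esrra, the receptor ERRalpha, fell by 1.17 (SE 0.19, adjusted p = 0.000607) and 0.95 (SE 0.17, adjusted p = 0.00169), and Perm1, a muscle regulator that acts with both, fell by 1.71 (SE 0.29, adjusted p = 0.000803) and 1.16 (SE 0.27, adjusted p = 0.00576). Nfe2l2, the antioxidant factor NRF2, rose by 1.06 (SE 0.13, adjusted p = 0.000119) and 0.61 (SE 0.12, adjusted p = 0.00284). Nrf1, whose letters are shown above, rose by 1.02 (SE 0.22, adjusted p = 0.00341) in moderate cachexia and gave 0.41 (adjusted p = 0.142) in severe. The other coactivators of the PGC-1 family did not follow Ppargc1b. Ppargc1a rose by 0.69 (SE 0.21, adjusted p = 0.0203) in moderate cachexia and gave -0.35 (adjusted p = 0.183) in severe, and Pprc1 rose by 0.76 (SE 0.14, adjusted p = 0.00123) and 0.72 (SE 0.13, adjusted p = 0.00151). The receptor gene Esrrg fell by 1.24 (SE 0.21, adjusted p = 0.000873) and 0.75 (SE 0.20, adjusted p = 0.0114), and Esrrb fell by 0.68 (SE 0.20, adjusted p = 0.0221) in severe cachexia and gave -0.37 (adjusted p = 0.191) in moderate.

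Promoters of 67 of the 76 genes, 73 in all, were found in the RefSeq table (GRCm38.p6, 250 bases before to 50 after each start site), and letters of known factors were searched on both strands, each on its own even where matches overlap. The NRF1 letters were found in 19.2% of the member promoters, beside 6.23% of all promoters in the table and 12.5% of those of the genes tested. CCGGAAG (ETS factors such as GABP) was found in 35.6%, beside 8.86% and 16.8%. A longer YY1 motif that begins with AAGATGG was found in 6.85%, beside 0.633% and 1.46%. The E-box letters CACGTG stood at 9.59%, beside 7.15% and 10.1%, AAGGTCA (ERR half-site) at 5.48%, beside 4.72% and 3.16%, and the TATA box letters TATAAA at 6.85%, beside 13.6% and 7.53%. Among promoters of the genes lower in both stages 6 of 20 held the NRF1 letters and 6 of 20 the ETS letters, and among those of genes that passed in neither stage 5 of 33 and 13 of 33. These are counts of promoters and not of genes. Of the genes lower in both stages, Mrpl48 has several promoters, and Mrpl13, Mrps28 and Mrps35 have none here. Of those that passed in neither stage, Mrpl2 and Mrps16 have several. The overlapping promoters of Mrpl2 hold the same E-box letters, counted once for each. A match is a description and not a site.

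Start sites that point away from a neighbor's, no more than 300 bases apart as for Mrpl46 and Mrps11, were found for 20 of the 65 tested members with a promoter (30.8%), beside 15.1% of all genes tested. Where both genes of such a pair were tested, 13 pairs, Mrpl46 with Mrps11 was the 1 pair in which both passed as lower. Mrps12 shares 146 bases with Sars2, whose falls are given above, while Mrps12 itself did not pass at its brighter probe. Mrpl43 shares 115 bases with Twnk, the mitochondrial DNA helicase, which fell by 0.50 (SE 0.17, adjusted p = 0.0338) and 0.54 (SE 0.16, adjusted p = 0.0215) in moderate and severe cachexia, while Mrpl43 was higher in severe. Mrpl50, lower in severe cachexia, shares 92 bases with Zfp189, a zinc finger gene that rose by 1.68 (SE 0.18, adjusted p = 3.77e-05) in moderate and by 0.76 (SE 0.16, adjusted p = 0.0042) in severe cachexia.

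Markers of slow fibers and of some other cells differed between cachectic and control muscle. Between the stages only brown fat markers passed, with 2 of 6 lower in severe cachexia. All 6 slow-fiber genes tested were lower in both stages, with medians of -1.76 and -1.57, and their summed signal was 13595 to 31006 in controls, 2265 to 11636 in moderate and 4683 to 8218 in severe mice. Adipocyte markers were lower in 4 and 3 of 8 tested (summed signal 18037 to 22470, 17000 to 17383 and 11883 to 20108) and brown fat markers in 4 and 3 of 6 (32217 to 35680, 20587 to 28085 and 13679 to 21460), where the latter list holds Cox7a1 and Cox8b, which muscle also makes, and Ppargc1a, its 1 gene that was higher in moderate cachexia. Macrophage markers were higher in 5 and 6 of 9 (2048 to 2425, 3357 to 4382 and 3289 to 7144). Fibroblast markers were lower in 3 of 6 in each stage (14200 to 15230, 13001 to 15804 and 10949 to 15891). Of 9 markers of skeletal muscle at large, the changes ran from -0.33 to 0.22 in moderate cachexia and did not pass, and 2 were lower and 1 higher in severe. Neutrophil markers were higher in 2 and red cell markers in 1 of 3 each in severe cachexia, and endothelial markers in 1 of 5 in moderate. Per mouse, the slow-fiber median was 0.50, 0.32, -0.06 and -0.69 in controls 1 to 4. It was -1.36, -3.06 and -0.71 in moderate mice 5, 9 and 12. In severe mice 11, 13, 15 and 16 it was -1.96, -1.19, -1.98 and -1.13. The members' medians of the same mice are given above. The part of these markers in the members' falls was not tested.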

How the data were processed

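Total RNA of 11 quadriceps samples was hybridised to Illumina arrays. The intensity values, as deposited by the authors, came from BeadStudio and GeneSpring GX per the study's methods; their values are on the linear scale, background-subtracted (28.5% were below 0) and of nearly the same distribution on every array, as after quantile normalization. The detection p-value of each probe, as deposited, measures signal over background. The ratio values deposited by the authors set each such intensity, at 1 or more, over the control median, and served as an alternative. No source names the settings of this software. The number of arrays limits the precision.

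Intensities were corrected and normalized with neqc of limma 3.58.1 in R 4.3.3 (normexp, offset 16, quantile, log2). A gene was represented by its probe of highest mean log2 signal among those past the detection filter. A single fit with 3 group means (lmFit, eBayes with trend) gave fold changes, standard errors and p-values, adjusted over all 10134 genes. The fit was first tested on simulated data. Values of every mouse are given for the 6 largest falls and 4 largest rises among genes past the threshold in each stage, up to 6 genes that differed between the stages, and the Mrps18 genes; for other lists up to 4 genes with the smallest adjusted p are named, and Nrf1, Ppargc1a, Pprc1, Esrrg, Esrrb, Twnk, Zfp189, Mrps5, Mrps12, Mrpl12 and Mrpl15 were chosen after their values were seen. Members and lists were chosen with earlier results of these data known. Alternatives changed the correction, normalization, filter, probe choice, test, weights and mice used. The labels call the samples of a group replicates without naming animals, so p-values measure only the spread between these samples.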

Additional observations from a re-analysis of the deposited data

Results flagged for a closer look

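Of 34 groups of 4 mice, for the 17 genes given mouse by mouse, 4 held a mouse apart from the others by Dixon's test at the 95% level, where chance gives about 1 in 20. All 4 were controls. Control 2 measured 9.77 for Mrpl18, beside 9.99 to 10.02 in the other controls. Control 3 measured 10.62 for Mrpl43, beside 10.35 to 10.38. Control 1 measured 10.20 for Mrps18b, beside 10.38 to 10.39, and 11.06 for Mrps18c, beside 10.83 to 10.85.

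The test of severe against moderate cachexia itself passed for 5 genes, with differences of -0.57 for Mrpl47, -0.56 for Mrpl1, -0.55 for Mrpl9, -0.44 for Mrpl50 and 0.50 for Mrpl43.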

How the results depend on the processing

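The median log2 fold change of the members kept its sign under every alternative. With 1 mouse left out it ran from -0.30 to -0.24 in moderate, -0.28 to -0.19 in severe and 0.01 to 0.09 between the stages. The count of lower genes ran from 11 to 32 in moderate, 19 to 29 in severe and 0 to 4 between the stages, and that of higher genes from 0 to 2, 0 to 5 and 0 to 1. Of 23 named changes past the threshold, 7 stayed past it under every setting that could be run: those of Mrpl45 and Mrpl28 in both stages, Mrpl18 and Mrpl48 in moderate and Mrpl16 in severe cachexia. Mrpl45, which passed the detection filter through the controls alone, has no value where detection on all arrays is required. Mrps18a turned to 0.024 without control 3 and ran from -0.096 (without moderate mouse 9) to 0.048 (without moderate mouse 12) in the moderate comparison, and did not pass in any setting.

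The 1 higher gene in moderate cachexia became 2 without normexp, with the deposited ratios, with the mean of a gene's probes, with the methods' t-test (adjusted) and without the intensity trend, and 3 with array weights. Array weights also gave 40 lower and 7 higher genes in severe cachexia, without a count over all genes to set beside them. With every probe counted, 44 of 111 were lower and 5 higher in moderate, 5 higher in severe and 2 higher in severe than moderate. The higher genes of severe cachexia numbered 0 with the deposited ratios and without the detection filter, where 6 passed an unadjusted p under 0.05 by limma in each. Between the stages the lower count was 2 with the deposited ratios, and 1 without the filter or with only the arrays compared, the latter with 0 higher (5 at an unadjusted p under 0.05 by limma). The methods' t-test gave 0 in both directions after adjustment and 5 lower and 10 higher at an unadjusted p under 0.05. The cause of these changes was not tested.

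Replicate numbers of the labels were not shown to pair mice: deviations of same-numbered samples correlated at -0.35 to 0.13 over 10 pairs, and 1 of 11 samples correlated best with its own number. With them as a replicate block on the deposited ratios, 14 genes were lower in moderate and 13 lower with 0 higher in severe cachexia, and between the stages 0 were lower and 0 higher, where limma gave 5 at an unadjusted p under 0.05 for each of these 3 counts of 0.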
